A study of Mus musculus with 16 samples.

Results

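The enteroendocrine transcription factor cascade was followed through 9 genes, Neurog3, Pax4, Neurod1, Insm1, Nkx2-2, Rfx6, Pax6, Isl1 and Fev, in sorted epithelial cells of the mouse colon. The genes were listed by name, with no threshold on their values, and the counts of all 9 were read from the 45513 genes in each library. The mice carried Atoh1(WT)CreERT2, a knock-in in which a tamoxifen-inducible Cre lies behind the coding sequence of Atoh1, together with a Rosa26tdTom reporter that Cre switches on for good. The Cre allele was homozygous and the reporter heterozygous, on C57BL/6, in males and females of 8 to 16 weeks according to the methods of the study. All mice received tamoxifen, 1 mg per day on 3 days by the labels and by the study's methods for defining its secretory signature. That signature came from tdTom+ against tdTom− cells. The RNA sequencing methods give 3 mg with collection after 24 h. No group was untreated. Live EpCAM+ cells, that is epithelial cells, of each of 8 mice were sorted into tdTom+ and tdTom− cells. The tdTom+ cells had made Cre from the Atoh1 locus or descended from cells that had. The tdTom− cells carried the same alleles but no reporter signal. Each group therefore held 8 libraries, 1 from each mouse, and the contrast asks which genes differ between cells with and without the reporter. In the study, enteroendocrine cells did not carry the reporter 24 h after a single pulse of tamoxifen but did some days later. The study reads this as mature enteroendocrine cells not keeping Atoh1 expression. The 3 daily doses, by the study, were meant to label every secretory lineage as fully as possible, and it calls the tdTom− cells absorptive. The study does not give the labelling of enteroendocrine cells after these doses. The tdTom− cells can therefore still include cells of the secretory lineage.

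Enteroendocrine cells are the scattered hormone-producing cells of the gut lining, and they arise from secretory precursors that express Atoh1, a basic helix-loop-helix factor. Neurog3, another factor of that class, is switched on for a short time in a precursor and commits it to the endocrine fate. Early factors such as Neurod1, Pax4 and Insm1 follow it, and later factors such as Nkx2-2, Rfx6, Pax6, Isl1 and Fev accompany the choice and upkeep of the hormones that each cell makes.

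Within the cascade, the initiating factor and 3 of the factors placed after it differed in opposite directions between the populations. Neurog3 was 3-fold higher in tdTom+ cells. Neurod1 was 2.18-fold, Pax6 1.85-fold and Fev 1.64-fold lower in tdTom+ cells, and Pax4, Insm1, Nkx2-2, Rfx6 and Isl1 did not pass the test. Levels are given as CPM, the counts of a gene per 1000000 counts of its library after edgeR's TMM scaling, and the test was edgeR's quasi-likelihood test without a mouse term, with p-values adjusted by Benjamini-Hochberg over the 15841 genes that passed a filter on low counts. All 9 factors passed that filter. At an adjusted p of 0.01, 1 of the 9 factors was higher in tdTom+ cells, where 25.5% of all tested genes were higher, and 3 of the 9 were lower, where 25.5% of all tested genes were lower. With that much of the table moving each way, neither count is read as a result about the 9 genes as a group. The median log2 fold change was -0.48 over the 9 factors and 0.00 over all tested genes.

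**Figure D1:**
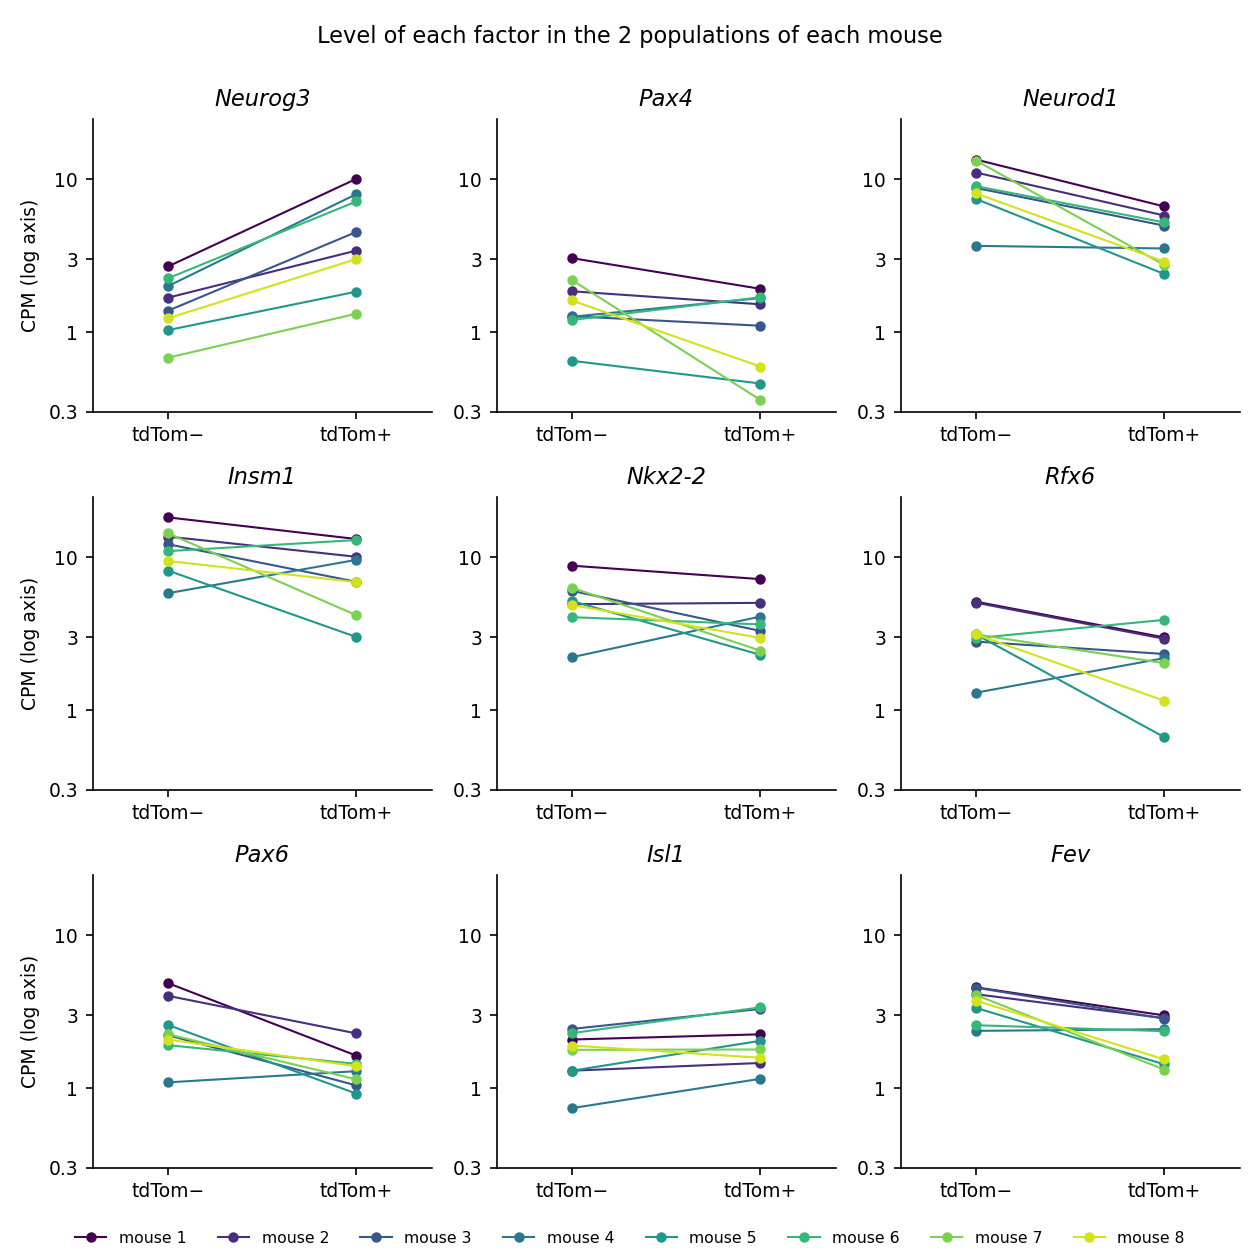
Level of each of the 9 factors in CPM, on a log axis, in the tdTom− and the tdTom+ library of each mouse. Each line joins the 2 libraries of 1 mouse. All 8 lines rise for Neurog3, all 8 fall for Neurod1, and the lines of the remaining factors run in both directions.

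Neurog3 (ENSMUSG00000044312, GRCm38 chromosome 10, 62133090 to 62134763, plus strand) was low in both populations in absolute terms, with 13 to 103 counts per tdTom− library and 22 to 179 per tdTom+ library. Its level in tdTom+ cells had a lowest value of 1.32, a median of 3.97 and a highest value of 10.1 CPM. In tdTom− cells these values were 0.679, 1.53 and 2.69 CPM. The groups overlapped, since the tdTom+ libraries of mice 5 and 7, at 1.84 and 1.32 CPM, lay below the highest tdTom− libraries, yet within every mouse the tdTom+ library was the higher one. The ratio within a mouse ran from 1.79-fold in mouse 5 to 4-fold in mouse 4. Its mean was 4.92 ± 3.16 CPM for tdTom+ against 1.62 ± 0.669 CPM for tdTom− (SD, n = 8 each), and the log2 fold change was 1.58 with an SE of 0.36, a 95% interval from 0.83 to 2.34 and an adjusted p of 7.48e-04 by edgeR. Of all tested genes, 25.4% were higher in the tdTom+ library of all 8 mice. The mouse numbers in the labels form 3 series, mice 1 to 3, mouse 4 and mice 5 to 8. Within mice 1 to 3 the log2 fold change of Neurog3 was 1.65 (adjusted p = 0.00557, edgeR). Within mice 5 to 8 it was 1.36 and missed the threshold (adjusted p = 0.0302, edgeR), whereas with the mouse as a block it was 1.29 there (adjusted p = 8.37e-05, edgeR). Over all 8 mice, the log2 fold change of Neurog3 with the mouse as a block was 1.54 (SE 0.15, adjusted p = 6.16e-08, edgeR).

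The Neurog3 and Isl1 promoters are shown because the fitted level of these members was above that of tdTom− cells, although Isl1 did not pass the test. Each also holds an E-box, the letters CANNTG that basic helix-loop-helix factors such as Atoh1 and Neurog3 bind. The sequences are the 250 bases before the RefSeq start (GRCm38.p6), at chr10:62132840-62133089 on the plus strand for Neurog3 and at chr13:116309689-116309938 on the minus strand for Isl1, with every CANNTG in capitals.
Neurog3: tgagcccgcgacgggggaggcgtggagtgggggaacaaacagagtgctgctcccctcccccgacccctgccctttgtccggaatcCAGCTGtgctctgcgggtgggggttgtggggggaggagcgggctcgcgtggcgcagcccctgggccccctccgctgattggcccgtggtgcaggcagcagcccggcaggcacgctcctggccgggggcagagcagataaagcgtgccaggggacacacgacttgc
Isl1: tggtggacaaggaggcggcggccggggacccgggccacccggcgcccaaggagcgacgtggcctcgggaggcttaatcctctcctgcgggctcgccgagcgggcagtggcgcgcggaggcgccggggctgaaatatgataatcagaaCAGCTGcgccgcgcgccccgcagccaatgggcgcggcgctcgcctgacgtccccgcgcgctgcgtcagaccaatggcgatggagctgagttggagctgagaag
In each, the single E-box reads CAGCTG, and it begins 165 bases before the start of Neurog3 and 103 bases before that of Isl1. RefSeq windows of 250 bases before to 50 bases after a start were found for 7 of the 9 factors, 8 windows in all because Pax6 has 2 starts. CANNTG, which reads the same on both strands and covers the next motifs, was found in 6 of these 8 windows and in 72.3% of all 32851 windows of that length. CAGCTG was found in 2 of the 8, those of Neurog3 and Isl1, against 16.3% of all windows. CAGATG, on either strand, was found in 1 of the 8, that of Nkx2-2, against 17.2% of all windows. The windows of Nkx2-2, Rfx6 and 1 of those of Pax6 begin more than 7000 bases from the gene start in the counted annotation, and no binding was measured. A link between a motif and the direction of a factor was not tested.

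Neurod1 (ENSMUSG00000034701, chromosome 2, 79452521 to 79456751, minus strand), a basic helix-loop-helix factor that Neurog3 activates, was the factor with the lowest log2 fold change. Its level was 3.67 at the lowest, 8.91 at the median and 13.5 CPM at the highest in tdTom− cells. In tdTom+ cells it was 2.40, 4.26 and 6.65 CPM. The tdTom− library was higher in all 8 mice, as for 26.0% of all tested genes, and the groups overlapped only through the tdTom− library of mouse 4. Its mean was 9.36 ± 3.23 CPM for tdTom− against 4.28 ± 1.59 CPM for tdTom+ (SD, n = 8 each). Its log2 fold change was -1.12 (SE 0.25, 95% interval -1.64 to -0.61, adjusted p = 5.00e-04, edgeR), and it stayed past the threshold when any 1 mouse was left out, with an adjusted p of at most 0.00362. With the mouse as a block, Neurod1 was at -1.10 (SE 0.17, adjusted p = 1.59e-05, edgeR).

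Pax4 and Insm1, also placed early in the cascade, did not pass the test. Pax4 (ENSMUSG00000029706, chromosome 6, 28442334 to 28449353, minus strand), a paired homeobox repressor, ran from 0.648 over a median of 1.44 to 3.05 CPM in tdTom− cells and from 0.359 over 1.31 to 1.92 CPM in tdTom+ cells. It was lower in the tdTom+ library of 6 mice and higher in 2, mice 4 and 6, and its log2 fold change of -0.48 had a 95% interval from -1.16 to 0.20 (adjusted p = 0.209, edgeR). The counts were small, from 6 to 65 per library. Insm1 (ENSMUSG00000068154, chromosome 2, 146221921 to 146225020, plus strand), a zinc-finger factor of endocrine and neuroendocrine cells, ran from 5.83 over 11.6 to 18.3 CPM in tdTom− cells and from 3.01 over 8.28 to 13.2 CPM in tdTom+ cells. It too was lower in 6 mice and higher in mice 4 and 6, with a log2 fold change of -0.47 and a 95% interval from -1.02 to 0.08 (adjusted p = 0.130, edgeR). Both intervals come from the fit without a mouse term and include 0 and also a drop of more than 2-fold. No difference was detected for either gene in that fit. With the mouse as a block, Pax4 was at -0.48 (SE 0.26, adjusted p = 0.11, edgeR). Insm1 was then at -0.49 (SE 0.19, adjusted p = 0.0359, edgeR), still not under 0.01. The difference of Insm1 passed in mice 1 to 3 with the mouse as a block, at -0.56 (adjusted p = 0.00288, edgeR).

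Among the later factors, Pax6 and Fev were lower in tdTom+ cells. Pax6 (ENSMUSG00000027168, chromosome 2, 105668900 to 105697364, plus strand), a paired homeobox factor that activates hormone genes such as that of glucagon, ran from 1.09 over 2.24 to 4.87 CPM in tdTom− cells and from 0.919 over 1.34 to 2.28 CPM in tdTom+ cells. It was lower in the tdTom+ library of 7 of 8 mice, all but mouse 4, and the highest tdTom− values were those of mice 1 and 2. For Pax6 the fitted log2 fold change came to -0.89 (SE 0.26, 95% interval -1.44 to -0.34, adjusted p = 0.00614, edgeR). Leaving out mouse 1, 3, 5, 7 or 8 raised the adjusted p above 0.01, to between 0.0123 and 0.0211, as did limma-voom (0.0489) and the restriction to mice 1 to 3 (0.0183). Over all mice with the mouse as a block, Pax6 was at -0.84 (SE 0.19, adjusted p = 7.20e-04, edgeR).

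Fev (ENSMUSG00000055197, chromosome 1, 74881509 to 74885419, minus strand), an ETS factor of serotonin-producing cells, ran from 2.37 over 3.91 to 4.57 CPM in tdTom− cells and from 1.32 over 2.40 to 2.99 CPM in tdTom+ cells. Its tdTom+ level was lower in 7 of 8 mice and about equal in mouse 4, at 2.43 against 2.37 CPM. Of the 9 factors it had the narrowest spread in both groups, with a highest library 1.93 times the lowest in tdTom− cells and 2.27 times in tdTom+ cells. Its log2 fold change was -0.72 (SE 0.19, 95% interval -1.12 to -0.31, adjusted p = 0.00307, edgeR). Without mouse 5, 7 or 8 the adjusted p was 0.0102, 0.0137 or 0.0143, and within mice 1 to 3 the log2 fold change was -0.60 (adjusted p = 0.0256, edgeR). Over all mice with the mouse as a block, Fev was at -0.72 (SE 0.17, adjusted p = 0.00114, edgeR).

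Nkx2-2, Rfx6 and Isl1 did not pass over all 8 mice, with or without the mouse as a block. Nkx2-2 (ENSMUSG00000027434, chromosome 2, 147177546 to 147194243, minus strand), a homeobox factor, ran from 2.22 over 5.06 to 8.83 CPM in tdTom− cells and from 2.30 over 3.47 to 7.21 CPM in tdTom+ cells, and its log2 fold change was -0.44 with a 95% interval from -0.96 to 0.08 (adjusted p = 0.131, edgeR). Within mice 5 to 8 the difference was larger, -0.84, and passed (adjusted p = 0.00166, edgeR). Rfx6 (ENSMUSG00000019900, chromosome 10, 51677756 to 51730429, plus strand), a winged-helix factor of endocrine cells, ran from 1.30 over 3.13 to 5.13 CPM in tdTom− cells and from 0.664 over 2.26 to 3.90 CPM in tdTom+ cells. Its log2 fold change was -0.54 with a 95% interval from -1.15 to 0.07 (adjusted p = 0.118, edgeR), and like Pax4 and Insm1 it was higher in tdTom+ cells of mice 4 and 6. With the mouse as a block, Nkx2-2 was at -0.42 (SE 0.19, adjusted p = 0.0581, edgeR). Rfx6 was then at -0.54 (SE 0.23, adjusted p = 0.048, edgeR), still not under 0.01.

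Isl1 (ENSMUSG00000042258, chromosome 13, 116298281 to 116309689, minus strand), a LIM homeobox factor, was the other member with a positive log2 fold change, 0.31 with a 95% interval from -0.22 to 0.84 (adjusted p = 0.296, edgeR). It ran from 0.739 over 1.84 to 2.44 CPM in tdTom− cells and from 1.15 over 1.92 to 3.38 CPM in tdTom+ cells. The groups overlapped almost wholly, although the tdTom+ library was the higher one in 7 of 8 mice, all but mouse 8. With the mouse as a block, Isl1 was at 0.29 (SE 0.15, adjusted p = 0.0915, edgeR).

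**Figure D2:**
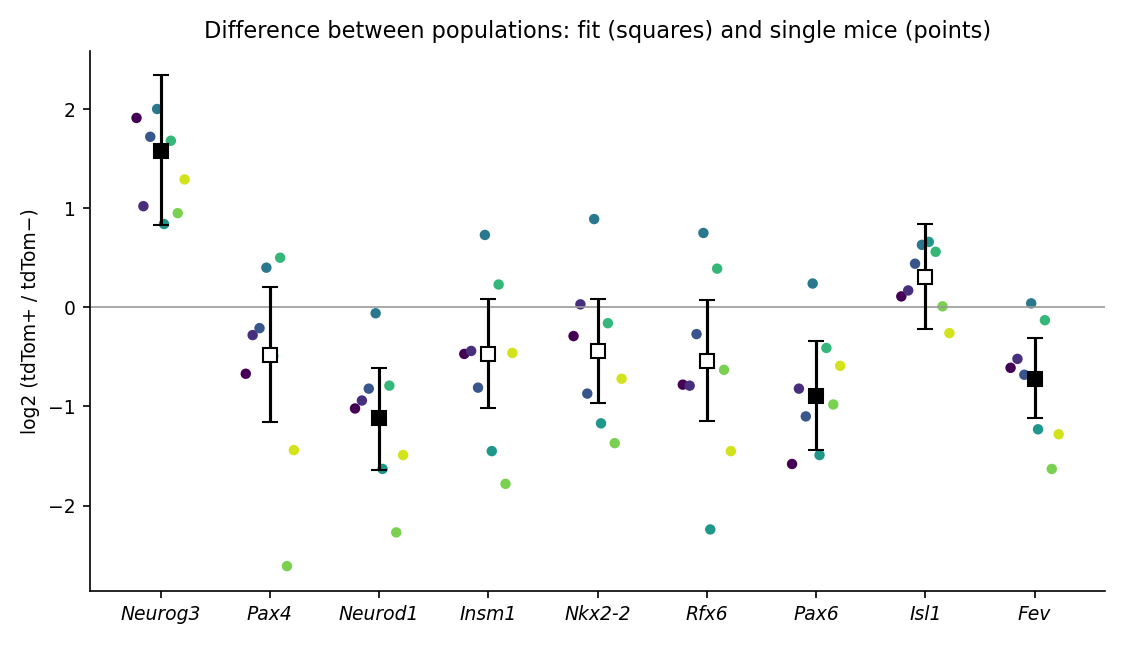
Log2 ratio of tdTom+ to tdTom− for each factor. Squares are the edgeR estimates with 95% intervals, filled where the adjusted p was under 0.01, and the small points are the ratios in mice 1 to 8 from left to right. Neurog3 lies above 0 in all mice and Neurod1 below, while mouse 4 gives positive ratios for 8 of the 9 factors.

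None of the 9 factors had groups without overlap, compared with 30.5% of all tested genes. Within each of the 8 mice, the log2 ratio of Neurog3 was larger than that of each of the other factors, 8 of 8 mice in every case. These differences between genes were counted and not tested.

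One library stood apart for these genes. The tdTom− library of mouse 4 was the lowest of its group for 7 of the 9 factors, all but Neurog3 and Pax4. It was also the deepest, with 45791503 counts against 16482530 to 24218367 in the other 15 libraries, and had the lowest mitochondrial share of its group, 3.74% against 6.05 to 9.97%. The tdTom+ library of mouse 4 likewise had the lowest mitochondrial share of its group, 2.23% against 4.29 to 6.92%. In mouse 4, 8 of the 9 factors were higher in tdTom+ cells, compared with 1 to 5 factors in the other mice. Without that tdTom− library, an alternative chosen after seeing the data, the same 1 factor higher and 3 factors lower were called, and the log2 fold changes moved to 1.65 for Neurog3, -1.25 for Neurod1, -1.02 for Pax6 and -0.80 for Fev. Those of Rfx6 and Nkx2-2 moved to -0.68 and -0.57 (adjusted p = 0.0332 and 0.0299, edgeR). The part of depth and RNA make-up in the low levels of this library was not tested. The mitochondrial share also differed between the populations: it was lower in the tdTom+ library of all 8 mice, at 2.23 to 6.92% against 3.74 to 9.97%, and its part in the differences of the 9 factors was not tested.

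The mice also differed from each other in a way that both populations shared in part. In tdTom+ cells mouse 1 had the highest level of 6 of the 9 factors, and mouse 5 was among the 2 lowest libraries for 8 of them and mouse 7 for 6. In tdTom− cells mouse 1 was highest for 8 of the 9 factors. In mouse 7 the tdTom− library was among the 2 highest for 4 factors, whereas the tdTom+ library was the lowest for 3, with Neurod1 at 13.3 CPM in the former and 2.75 CPM in the latter.

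Levels of different genes were compared per kilobase of exon (CPM per kb), using the exon length counted in the files. In tdTom− cells the order of the means was Insm1 at 3.76 ± 1.26, Neurod1 at 3.43 ± 1.18, Fev at 2.27 ± 0.52, Nkx2-2 at 1.85 ± 0.663, Neurog3 at 1.05 ± 0.435, Pax4 at 0.836 ± 0.376, Rfx6 at 0.833 ± 0.311, Isl1 at 0.436 ± 0.146 and Pax6 at 0.225 ± 0.104 CPM per kb (SD, n = 8). Neighbours in this order differed by more than the larger of their SDs only between Nkx2-2 and Neurog3, between Rfx6 and Isl1 and between Isl1 and Pax6. These SDs are spreads between mice. Within single libraries these 3 steps held in 6, 8 and 7 of 8, and the smaller steps in 4 to 7 of 8. In tdTom+ cells Neurog3 stood first, at 3.20 ± 2.05 CPM per kb, ahead of Insm1 at 2.70 ± 1.22, Neurod1 at 1.57 ± 0.583, Fev at 1.38 ± 0.429 and Nkx2-2 at 1.35 ± 0.562. Pax4 at 0.595 ± 0.318, Rfx6 at 0.569 ± 0.259, Isl1 at 0.536 ± 0.209 and Pax6 at 0.119 ± 0.0365 CPM per kb followed. Here only the steps from Nkx2-2 to Pax4 and from Isl1 to Pax6 were larger than the larger SD. Both held in 8 of 8 libraries, as did the smaller step from Insm1 to Neurod1. Neurog3 was above Insm1 in 5 of 8 libraries, so its first place does not hold in every mouse. The exons of Pax6 sum to 11694 bases in the counted annotation, 1540 for Neurog3, and a length that holds rarely used exons lowers the value per kb.

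The 9 factors together gave 14.7 ± 4.25 CPM per kb in tdTom− and 12.0 ± 5.03 CPM per kb in tdTom+ cells (SD, n = 8 each), with the tdTom+ sum higher in 2 of 8 mice. Neurog3 made up 7.72 ± 4.14% of this sum in tdTom− cells, from 2.56 to 16.2%, and 24.6 ± 7.63% in tdTom+ cells, from 14.0 to 36.3%, a larger share in tdTom+ cells in all 8 mice. The share of Neurod1 was 23.0 ± 3.26% against 13.6 ± 2.61%, and that of Fev 15.9 ± 2.64% against 12.1 ± 2.46%, each smaller in tdTom+ cells in all 8 mice. Insm1 took 25.3 ± 1.72% in tdTom− and 22.2 ± 3.36% in tdTom+ cells, and Nkx2-2 12.4 ± 2.09% and 11.7 ± 2.29%. Since shares sum to the whole, a larger share of Neurog3 lowers the rest, and they were not tested.

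**Figure D3:**
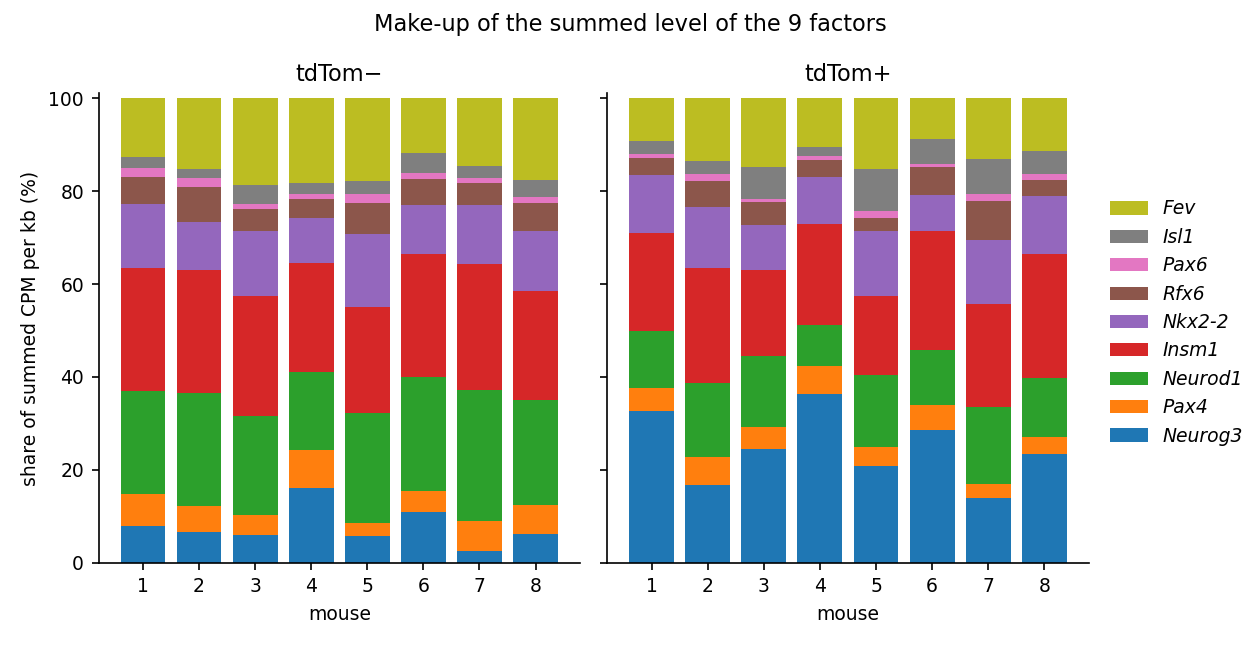
Share of each factor in the summed CPM per kb of the 9 factors, in percent, for each mouse (x axis) in tdTom− cells (left) and tdTom+ cells (right). The Neurog3 segment at the base covers 2.56 to 16.2% of the bars on the left and 14.0 to 36.3% on the right.

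Atoh1, Gfi1, Hes1, Spdef and Ascl2, listed here as upstream regulators, were read from the same fit. The name of the list does not place each of them before Neurog3, and Spdef belongs to the goblet branch. Atoh1, which marks the sorted cells, averaged 132 ± 19.3 CPM in the tdTom+ group against 5.70 ± 1.67 CPM in the other (SD, n = 8), from 102 to 166 against 3.18 to 8.89 CPM, and its log2 fold change was 4.54 (adjusted p = 1.14e-15, edgeR). Since Cre is made from the Atoh1 locus, the sort itself selects for Atoh1, and its difference is no independent result. Gfi1, a zinc-finger repressor downstream of Atoh1, was higher in tdTom+ cells by 4.37 and Spdef, an ETS factor of goblet cell maturation, by 4.34 on the log2 scale. Hes1, the Notch effector that represses Atoh1, was lower with a log2 fold change of -1.08, from 37.8 to 63.5 CPM in tdTom+ and from 76.0 to 127 CPM in tdTom− cells. Ascl2, a stem cell factor, was lower as well, at -0.79 (adjusted p = 0.00172, edgeR). Atoh1 was spread only 1.62-fold across the tdTom+ libraries, compared with 7.67-fold for Neurog3. These libraries held 1584 to 3538 counts of Atoh1 and 22 to 179 of Neurog3. The part of counting error in the wider spread was not tested.

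Of 13 other transcription factors linked to enteroendocrine cells, 3 were higher in tdTom+ cells, 6 were lower and 4 did not pass, where 25.5% of all tested genes were called in each direction. The median log2 fold change of the 13 was -0.36, against 0.00 over all tested genes. The highest were the forkhead factors Foxa2 at 1.32 (SE 0.08) and Foxa1 at 0.84 (SE 0.07), which many intestinal epithelial cells express. The lowest were Runx1t1, a co-repressor, at -1.64 (SE 0.24) and Lmx1a, a LIM homeobox factor of serotonin-producing cells, at -1.49 (SE 0.26). Runx1t1 and Lmx1a were lower in tdTom+ cells in all 8 mice, as were 26.0% of all tested genes.

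Of 23 genes for enteroendocrine products, that is for hormones, granule proteins and amine synthesis, 22 were tested. In tdTom+ cells 17 were lower, 2 were higher and 3 did not pass, beside the same 25.5% of all tested genes in each direction, and the median log2 fold change of the list was -1.52. The lowest were Pcsk1n, which encodes an inhibitor of a prohormone convertase, at -3.97 (2.75 ± 0.732 against 42.8 ± 14.7 CPM, tdTom+ against tdTom−, SD, n = 8) and Tph1, the rate-limiting enzyme of serotonin synthesis in the gut, at -3.56 (13.0 ± 4.47 against 153 ± 61.9 CPM). The 2 higher ones were Ghrl, the gene of the hormone ghrelin, at 2.33 (1.44 ± 0.646 against 0.291 ± 0.220 CPM) and Pcsk1, the prohormone convertase itself, at 1.53 (47.3 ± 14.7 against 16.5 ± 4.36 CPM). All 4 of these differences had the same direction in 8 of 8 mice. Of all tested genes, 25.4% were higher and 26.0% lower in tdTom+ cells in 8 of 8 mice. Ghrl was close to the limit of detection in tdTom− cells, where 3 counts, the floor taken for counting error, correspond to 0.0583 to 0.163 CPM. With the mouse as a block Sst, the somatostatin gene, also passed, with a log2 fold change of -0.56 (adjusted p = 4.15e-05, edgeR, against 0.158 without the block). In bulk samples, fewer cells of a type and less RNA per cell cannot be told apart, here and for each of the 9 factors.

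**Figure D4:**
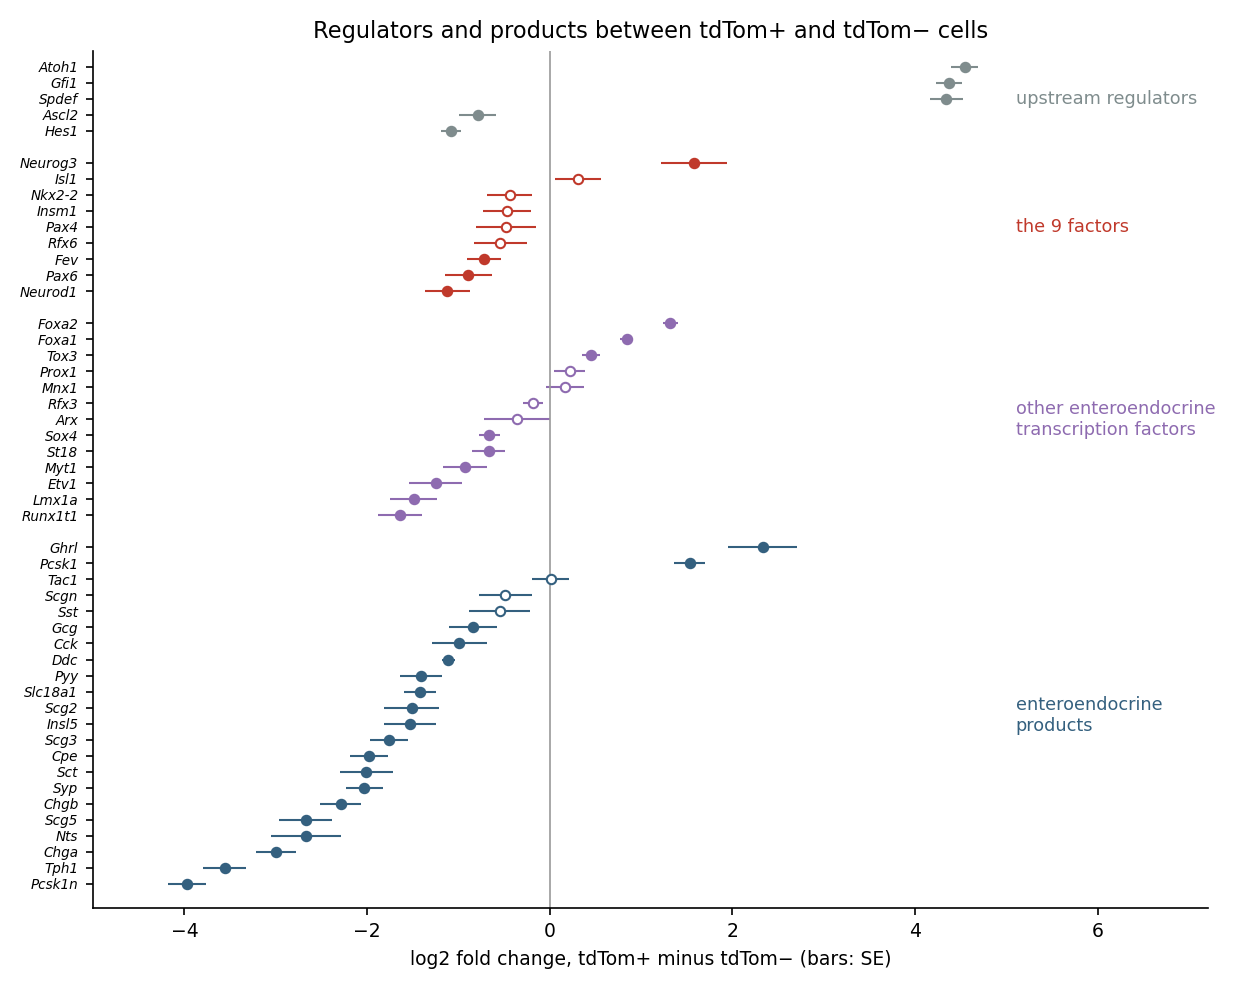
Log2 fold change between tdTom+ and tdTom− cells, with SE, of the upstream regulators, the 9 factors, the other enteroendocrine transcription factors and the tested enteroendocrine products, each sorted from highest to lowest. Filled points had an adjusted p under 0.01. Neurog3, Ghrl and Pcsk1 lie right of 0 and 17 of the products lie left with filled points.

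Cell types were read from marker lists that were chosen with earlier results of these data known. Enteroendocrine RNA was present in both populations: the granule protein gene Chga averaged 93.6 ± 31.2 CPM against 746 ± 251 CPM, and Chgb 234 ± 80.7 against 1143 ± 366 CPM (tdTom+ against tdTom−, SD, n = 8). All 6 goblet markers were higher in tdTom+ cells, with log2 fold changes from 3.56 (Zg16) and 3.73 (Clca1) to 4.20 (Agr2) and 4.61 (Muc2), and a summed level of 48689 to 102605 CPM against 2209 to 8638 CPM. All 6 absorptive markers were lower, from -5.18 (Aqp8) and -4.98 (Car4) to -4.15 (Car1) and -3.30 (Krt20), with sums of 323 to 633 against 5646 to 11150 CPM. Of 6 tuft cell markers, 4 were lower and 2 did not pass, from -1.36 (Il17rb) to -0.42 (Avil) and 0.05 (Pou2f3), with sums of 50.2 to 105 against 90.7 to 155 CPM.

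Neurons share several of the 9 factors, so neuronal and glial markers were read as well. S100b, a glial marker, had 3 counts over all libraries. Uchl1, which endocrine cells also express, was lower in tdTom+ cells at -3.10, and Ret (-0.33) did not pass, with sums over the 6 markers of 5.20 to 9.01 CPM in tdTom+ and 4.92 to 13.7 CPM in tdTom− cells. Of 6 immune markers 3 were tested, and Ptprc at -1.52 was lower, whereas Itgam (-0.10) and Lyz2 (-2.11, adjusted p = 0.0108, edgeR, and 1.62e-06 with the mouse as a block) were not called without the block. Their sums were 6.02 to 12.4 CPM in tdTom+ and 10.3 to 34.6 CPM in tdTom− cells. Of 6 stromal and endothelial markers 3 were tested, with Pecam1 (-1.58) and Acta2 (-0.41) lower and Vim (-0.51) not passing, and sums of 7.47 to 15.5 against 11.8 to 24.3 CPM. The part of these cells in the levels of the 9 factors was not tested.

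Likeness to Neurog3 was taken as Pearson's r of log2 CPM, as a description over 16 libraries that come in pairs from 8 mice. Over all libraries the tested genes most like it were Ncdn (r = 0.890, Spearman's rho 0.885), Slc25a29 (0.889, 0.853), Lgals9 (0.876, 0.824), Tmem206 (0.868, 0.909) and Akr1a1 (0.861, 0.868). After the mean of each population was taken off, so that the difference between populations no longer counts, the leading genes were Cisd3 (r = 0.907), 2210407C18Rik (0.902), Chst8 (0.867), Gnl1 (0.859) and Pgpep1 (0.856). None of the other 8 factors was among either set. By the second measure Pax4 (r = 0.709) and Insm1 (0.639) were the factors that followed Neurog3 most closely from mouse to mouse. Fev (0.477), Rfx6 (0.443), Nkx2-2 (0.408) and Neurod1 (0.363) came next, and Pax6 (0.235) and Isl1 (0.098) followed it least. Over all 16 libraries, which include the difference between populations, these values were lower for every factor but Isl1 and ran from -0.289 for Neurod1 to 0.259 for Pax4.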

How the data were processed

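RNA sequencing of 16 libraries, EpCAM+ tdTom+ and tdTom− cells from the colon of 8 mice, was analysed. The authors prepared stranded mRNA libraries, sequenced 50 base single-end reads and aligned them to GRCm38.p3 with TopHat2 2.1.1, and they deposited raw counts per gene from featureCounts (exons, primary alignments, reverse strand), without normalization. The submitters' processing notes name Subread 1.5.2, the file headers 1.5.0-p1. Symbols came from GENCODE M21 for 44585 of 45513 genes.

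Groups and mouse numbers came from the labels. The counts were compared with edgeR 4.0.16 (R 4.3.3): filterByExpr, TMM, glmQLFit and glmQLFTest, no mouse term, adjusted p under 0.01 over all genes tested. Each SE is the log2 fold change over the root of F. Log2 CPM used a prior count of 2, and plotted ratios within a mouse used none. Both libraries of a mouse come from the same animal, so the numbers pair them: deviations from group means correlated at 0.223 to 0.408 within a mouse and at -0.262 to 0.168 between mice. No 2 samples of a group agreed within sampling noise. Total counts ran from 16482530 to 45791503, and floors of 3 counts and intervals on them cover counting error only.

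Alternatives were the mouse as a block, DESeq2 1.42.0, limma-voom (limma 3.58.1), upper-quartile or RLE scaling, a minimum of 10 counts in all samples or none, leaving out each mouse, mice 1 to 3 or 5 to 8 only, and an adjusted p of 0.05. Chosen after seeing the data were the fit without the tdTom− library of mouse 4 and the series of mice with the block. The fits were tested on simulated counts. The members and gene lists were chosen with earlier results of these data known. Named genes are the 9 factors, 5 upstream regulators, the 2 highest and 2 lowest log2 fold changes of each other list, and the 5 genes most like Neurog3 by each of 2 measures, to which list members that the block alone called or that served to check a cell type, and the hormone genes, were added after their values were seen. The values of some single marker genes are not reported here. Promoters are RefSeq's (GRCm38.p6). Summaries used scipy 1.17.1, pandas 2.3.3 and numpy 2.4.6 under Python 3.11.15.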

Additional observations from a re-analysis of the deposited data

Results flagged for a closer look

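In 30 groups of 8 samples (total counts, the 9 factors and the 5 upstream regulators in each population), 2 held a library whose gap to its nearest neighbour took more of the group's range than Dixon's critical value for 95% allows, where chance alone flags about 1.5. The tdTom− library of mouse 4 had 45791503 total counts, while the other tdTom− libraries had 18318172 to 20668605. Spdef was at 33.4 CPM in the tdTom− library of mouse 6 and at 13.9 to 21.4 CPM in the other tdTom− libraries. That library was also the highest of its group for Atoh1, at 8.89 CPM, and for Gfi1, at 3.06 CPM. None of the 9 factors had such a library in either population.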

How the results depend on the processing

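No factor changed direction under any of the alternatives, which gave 188 values: 172 kept their side of the threshold, 13 lost it and 3 gained it. The factors higher in tdTom+ cells went from 1 to 0 in mice 5 to 8. The factors lower went from 3 to 1 in mice 1 to 3, and ranged from 1 to 3 when each mouse was left out. In mice 1 to 3, with 3 mice in place of 8, 2546 genes were higher and 2559 lower. With limma-voom 3 of the other enteroendocrine transcription factors were lower, and with at least 10 counts in every sample 1 product was higher; the causes were not tested. With the mouse as a block (no block in the results above) 1 factor was higher and 3 lower, with Neurog3 at 1.54, and it changed no other call among the 9 factors. Pax4 was not tested under the minimum of 10 counts. Depth limits Pax4 most, with 6 counts in its lowest library.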

Other observations

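The product list holds 10 hormone genes, of which 9 were tested. In tdTom+ cells 6 were lower, 1, Ghrl, was higher and 2, Sst and Tac1, did not pass. The log2 fold changes of those lower were -2.67 for Nts (neurotensin), -2.01 for Sct (secretin), -1.53 for Insl5, -1.41 for Pyy (peptide YY), -0.99 for Cck (cholecystokinin) and -0.84 for Gcg (glucagon). Gcg averaged 122 ± 53.1 CPM against 217 ± 92.7 CPM, and Nts 8.91 ± 6.49 against 56.1 ± 32.8 CPM (tdTom+ against tdTom−, SD, n = 8). Tac1, which encodes substance P, averaged 7.32 ± 2.30 against 7.33 ± 2.05 CPM, with 4 mice in each direction. Differences between hormones were not tested.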
